A study of Mus musculus with 12 samples.

Results

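The genes described here are 78 genes that were clearly expressed in CD4+ T cells of control mice and nearly lost in the same sorted population from severely affected Tet2/3-deficient mice. They were chosen from the measured values: at least 3 counts per 1000000 reads on genes (CPM) in each of 4 WT libraries, a mean of at least 5 CPM in WT, and a mean in DKO-severe of at most 20% of the WT mean. The choice left 78 of 9389 genes that met the WT minimum, out of 26608 genes listed. The comparison of DKO-severe with WT is therefore a description of the choice and carries no test, and the DKO-moderate libraries are the ones that the choice did not use.

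RNA was sequenced from CD4+ YFP(FOXP3)- T cells sorted from spleen pooled with cervical and inguinal lymph nodes, with 4 libraries in each of 3 groups of 14-week-old mice. WT mice carried Foxp3-Cre, an allele in which the Foxp3 gene also produces YFP and Cre recombinase, and had intact Tet2 and Tet3. DKO mice carried the same Foxp3-Cre together with loxP-flanked alleles of both genes (Tet2 fl/fl Tet3 fl/fl), on a C57BL/6 background, and were divided into DKO-moderate and DKO-severe by the total number of leukocytes in spleen and nodes. Cre acts in cells that express or once expressed FOXP3, so the sorted YFP(FOXP3)- population mixes cells that kept both genes with former Treg cells that may have lost them, and this Cre has been regarded as leaky. Severity was set by leukocyte number in the same mice, so severity and any other property that goes with it cannot be told apart. Reads on genes ranged from 29254260 to 42133536 per library. Whole-gene counts of the targeted genes do not isolate the floxed exons: Tet2 ranged over 40.9 to 59.0 CPM in WT, then 35.5 to 58.5 CPM in DKO-moderate and 59.7 to 71.8 CPM in DKO-severe, and Tet3 over 158 to 199.8 CPM in WT, then 92.3 to 176 CPM in DKO-moderate and 92.5 to 109 CPM in DKO-severe.

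Naive CD4+ T cells circulate through lymph nodes in a resting state that is kept by a set of transcription factors and surface receptors, and they lose much of that program when they become effector or follicular helper cells. TET enzymes oxidise methylated cytosine and so take part in removing DNA methylation at regulatory regions. Several of the 78 genes, including Igfbp4, Dapl1 and Actn1, are widely used as markers of naive T cells, and others encode receptors that act through cyclic AMP or through the TGF-beta family. In bulk RNA, fewer cells of a type and less RNA per cell cannot be told apart, which applies to every level below.

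The start regions of Igfbp4 and Actn1 are shown for reference, since both are among the 6 of the 78 genes with the highest WT level per kb of exon and serve as markers of naive T cells. Each line gives the 250 bases before the RefSeq start (GRCm38.p6), 5′ to 3′ on the strand of the gene, and capitals mark matches on either strand to the motifs searched. The RefSeq start of Igfbp4 is also its outermost start in GENCODE, and that of Actn1 lies 8 bases inside the outermost one.
Igfbp4 chr11:99040994-99041243, + strand: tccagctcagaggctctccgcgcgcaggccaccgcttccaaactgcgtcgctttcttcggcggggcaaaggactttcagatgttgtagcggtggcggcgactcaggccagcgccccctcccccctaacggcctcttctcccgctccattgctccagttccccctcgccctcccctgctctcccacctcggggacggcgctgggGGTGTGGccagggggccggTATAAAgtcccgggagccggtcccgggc
Actn1 chr12:80260364-80260613, - strand: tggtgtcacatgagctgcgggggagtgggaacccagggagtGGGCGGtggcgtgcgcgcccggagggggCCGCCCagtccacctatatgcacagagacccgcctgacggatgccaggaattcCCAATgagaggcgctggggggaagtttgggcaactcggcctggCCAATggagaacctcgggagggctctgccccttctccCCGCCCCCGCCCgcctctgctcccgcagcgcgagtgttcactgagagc

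The Igfbp4 window held a TATA box (TATAAA) 28 bases before the start and a CACCC box (CCACACC) on the opposite strand. The Actn1 window held 4 matches to the GC box (GGGCGG) and 2 to the CCAAT box (CCAAT), of which the GC boxes nearest the start adjoin each other. Among 27025 promoter windows of the same length, 32.9% held a GC box, 34.5% a CCAAT box, 13.0% a TATA box and 6.58% a CACCC box. The ratio of observed to expected CpG was 0.75 in Igfbp4 and 0.62 in Actn1, against a median of 0.38 over all windows. Only 56 of the 78 genes had a window in the table used, too few for a share over the group to be given.

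In DKO-moderate the 78 genes stood at an intermediate level. The median gene was at 46.8% of its WT mean in DKO-moderate and at 14.0% in DKO-severe, whereas the median over the 9389 genes that met the WT minimum was 102% in DKO-moderate and 103% in DKO-severe. Of the 78, 75 lay between 33% and 66% of WT in DKO-moderate. The lowest were Mid1 at 20.9% and Adh1 at 25.3%, and the highest were Xlr3b at 106% and Scg5 at 65.3%. Levels below 50% of WT were found for 53 of the 78 genes, against 102 of the 9389.

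The libraries of a group did not stand at the same level. The median of the 78 genes was 54.1% of the WT mean in DKO-moderate 1, 31.96% in DKO-moderate 2, 61.1% in DKO-moderate 3 and 33.5% in DKO-moderate 4. It was 6.196% in DKO-severe 1, 19.02% in DKO-severe 2, 14.9% in DKO-severe 3 and 14.7% in DKO-severe 4, while the WT libraries stayed between 97.7% and 106%. DKO-moderate 2 and 4 thus were lower than DKO-moderate 1 and 3, and this order held in 64 of the 78 genes (82.1%) against 23.1% of the genes that met the WT minimum. DKO-severe 1 was the lowest severe library for 70 of the 78 genes (89.7%), against 33.7% of the genes that met the WT minimum. The median coefficient of variation within a group was 13.7% among the WT libraries, 36.8% among DKO-moderate and 47.6% among DKO-severe, against 8.56%, 14.3% and 9.17% over the genes that met the WT minimum.

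**Figure D1:**
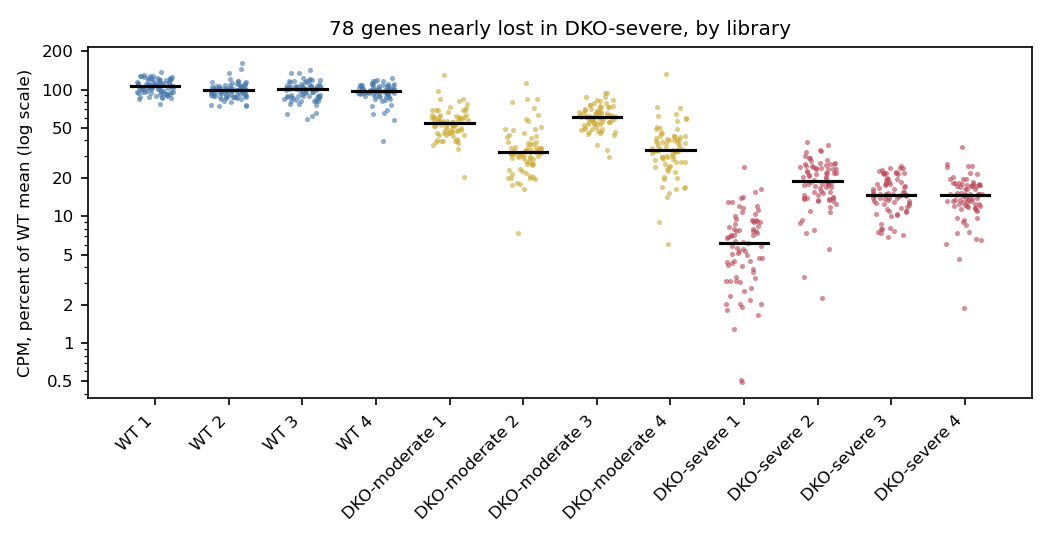
CPM of each of the 78 genes in each of the 12 libraries as a percent of its WT mean, on a log axis, with 1 point per gene and a black bar at the median of the library. The DKO-moderate libraries form a higher pair, 1 and 3, and a lower pair, 2 and 4, and DKO-severe 1, with a median of 6.196%, stands below the other severe libraries.

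**Figure D2:**
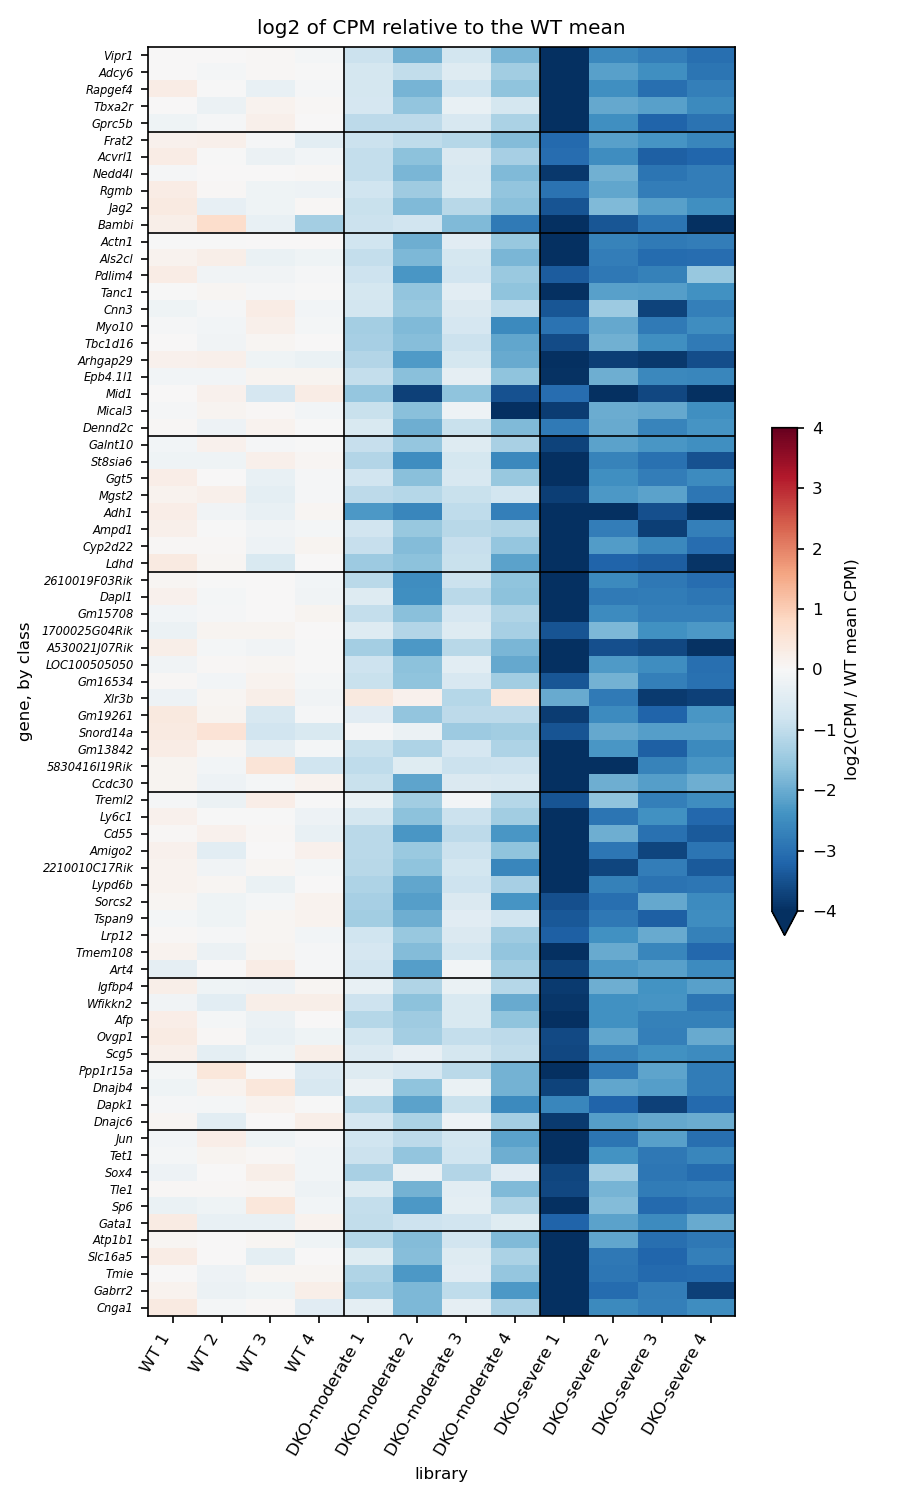
log2 of CPM relative to the WT mean for 75 of the 78 genes (lines, grouped by class and ordered by WT level) in the 12 libraries (columns), with values below -4 drawn in the darkest blue. Nearly all genes are pale in WT, intermediate in DKO-moderate and dark in DKO-severe, and Xlr3b is pale or red in DKO-moderate 1, 2 and 4.

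Against WT, 41 of the 78 genes were lower in DKO-moderate and 0 were higher (edgeR quasi-likelihood test, Benjamini-Hochberg adjusted p under 0.05), beside 4.74% called lower and 12.3% called higher over the 16035 genes tested, and 7.26% called lower among the genes that met the WT minimum. The WT libraries of this comparison also served to choose the genes. The median log2 fold change was -1.15 (range -2.30 to -0.01), against 0.00 over all tested genes. Every DKO-moderate library lay below every WT library for 66 of the 78 genes, beside 7.91% of all genes tested and 10.6% of those that met the WT minimum. The count rested on single libraries: it was 12 without WT 1, 14 without WT 2, 22 without WT 4, 13 without DKO-moderate 2, 16 without DKO-moderate 4 and 63 without DKO-severe 1, with a median level in DKO-moderate of 40.6% to 50.9% of WT over all such omissions. Over all tested genes the share called lower in these fits was 1.88%, 2.04%, 2.86%, 2.13%, 4.21% and 5.16%, in the same order. The median log2 fold change of the 78 genes in them was -1.17 to -1.01. Of the 41 genes, 10 were called in every fit that left out 1 library, among them Frat2, Acvrl1, Myo10, Tbc1d16, Rgmb, A530021J07Rik, Dapk1 and Mid1. The genes called outside these 10 each lost their call in 1 (for example Gprc5b) to 9 (Ly6c1) of the 12 such fits.

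From DKO-moderate to DKO-severe, 75 of the 78 genes were lower and 0 were higher by the same test, beside 10.7% called lower and 9.41% called higher over all tested genes and 15.9% called lower among those that met the WT minimum, with a median log2 fold change of -1.88. The severe libraries chose these genes, so this count is a description. In every fit that left out 1 library, 61 of them were called. The 3 genes not called were Mid1, Mical3 and Ccdc30. Every severe library lay below every moderate library for 65 of the 78 genes, beside 7.28% of all tested genes and 9.79% of those that met the WT minimum. Both steps were called for 40 genes, the first alone for Mid1, the second alone for 35, and neither for Mical3 and Ccdc30. The median gene had 38.4% of its log2 fall from WT to DKO-severe by DKO-moderate.

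**Figure D3:**
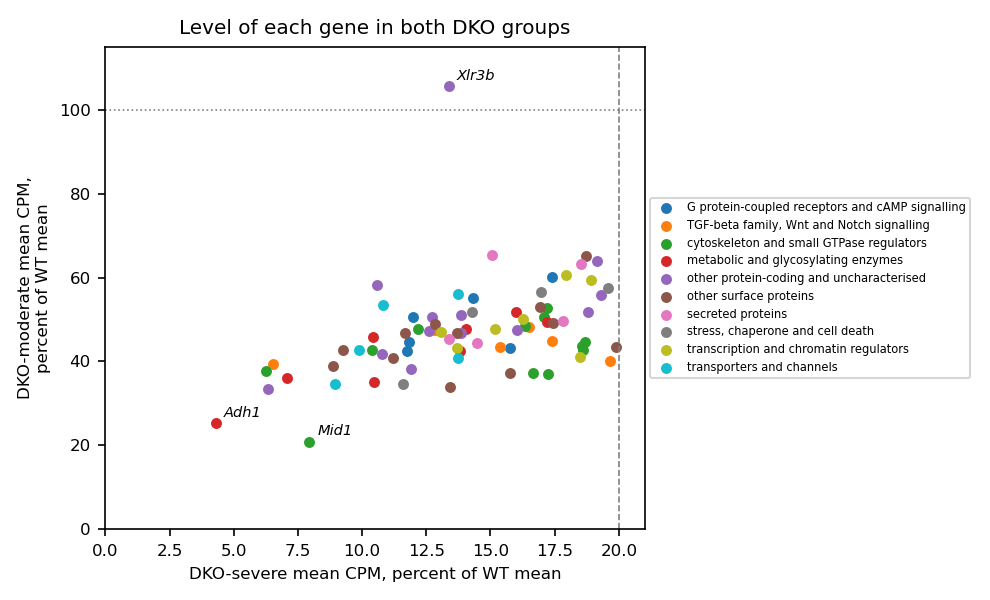
Mean CPM of each gene in DKO-severe (horizontal axis) and DKO-moderate (vertical axis), both as percent of the WT mean, colored by class. The dashed line is the 20% limit used to choose the genes and the dotted line is the WT level. Most genes lie between 33% and 66% on the vertical axis, with Xlr3b at 106% and Mid1 and Adh1 at the bottom.

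Markers of other cells differed between the libraries. The summed CPM of 12 neutrophil genes was 0.0259 to 4.42 in WT, 0.378 to 9.31 in DKO-moderate and 12.05 to 2407 in DKO-severe, with the highest value in DKO-severe 1, and all 12 genes were under 1 CPM on average in WT. The sum of 18 measured B cell genes was 15.5 to 814 CPM in WT, 43.8 to 62.4 CPM in DKO-moderate and 206 to 1391 CPM in DKO-severe. The CD8 T cell genes Cd8a and Cd8b1 summed to 15.5 to 25.4 CPM in WT, 3.19 to 8.14 CPM in DKO-moderate and 1.11 to 14.3 CPM in DKO-severe. The 12 measured CD4 T cell genes summed to 6428 to 7167 CPM in WT, 7034 to 7364 CPM in DKO-moderate and 5655 to 6597 CPM in DKO-severe. Other lists were highest, among the DKO-moderate libraries, in DKO-moderate 2 and 4, where the 78 genes were lowest. The 5 measured NK and innate-like genes summed to 15.7 to 31.7 CPM in WT, to 57.0, 128, 56.5 and 196 CPM in DKO-moderate 1 to 4, and to 45.6 to 111 CPM in DKO-severe. Only 1 of them, Klrb1c, was called against WT, higher in both DKO groups (edgeR), and the paper counts it among Tfh-related genes. The 10 Treg genes summed to 205 to 316 CPM in WT, to 569, 929, 532 and 645 CPM in DKO-moderate 1 to 4, and to 1093 to 1281 CPM in DKO-severe. They did not move one way: 3 were lower and 6 higher in DKO-severe than in WT (edgeR). Foxp3 was among the lower ones (log2 fold change -2.10) and Il2ra and Ctla4 among the higher ones (3.04 and 2.99). The sum is therefore no measure of Treg cells. The 13 measured monocyte, macrophage and dendritic cell genes summed to 12.4 to 217 CPM in WT, to 50.6, 82.2, 32.4 and 95.0 CPM in DKO-moderate 1 to 4, and to 95.9 to 520 CPM in DKO-severe, and the 5 measured plasma cell genes to 57.3 to 71.7 CPM, to 81.2, 115.7, 88.3 and 114.9 CPM, and to 162 to 191 CPM. Of these genes, 2 NK, 1 Treg, 5 monocyte and 3 plasma cell genes averaged under 1 CPM in WT. None of the 78 genes belongs to the neutrophil, B cell, plasma cell, monocyte, NK, Treg or CD8 lists. With terms for the neutrophil and B cell genes, chosen after the data were seen, 28 of the 78 genes were lower in DKO-moderate than in WT, and 1 was lower in DKO-severe than DKO-moderate, where the median log2 fold change became -0.95 with a median SE of 0.54. Over all tested genes, 3.05% and 0.106% were called lower in the same comparisons, against 4.74% and 10.7% without the terms. Every DKO-severe library had a higher neutrophil sum than every other library, so these terms and severity can hardly be told apart in that fit. Without WT 3, DKO-severe 1 and DKO-severe 2, which held the most B cell or neutrophil reads, the counts among the 78 genes were 56 and 65. The shares over all tested genes were then 4.69% and 5.76%. Whether other cells had a part in the levels of the 78 genes was not tested beyond these values.

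Of 20 genes on a list of naive T cell genes, 5 are among the 78: Igfbp4, Dapl1, Actn1, Treml2 and Als2cl. The list, which rests in part on these 5 genes, was 9203 to 9769 CPM in sum in WT, 4748 to 7484 in DKO-moderate and 2932 to 4038 in DKO-severe. Of its 20 genes, 7 were lower in DKO-moderate than in WT (edgeR), beside 4.74% of all tested genes. The 5 chosen genes are not among these 7. In DKO-severe 15 were lower than in DKO-moderate, beside 10.7%. The 15 include the 5 chosen genes, so that count is in part a description. In either comparison 0 were higher, beside 12.3% and 9.41% over all tested genes. The 15 list genes outside the 78 ranged from 21.7% to 83.1% of WT in DKO-severe. Lef1, a transcription factor of resting T cells, was at 54.0% of its WT mean in the moderate group and 21.7% in the severe group. Ccr7, the lymph node homing receptor, was at 58.6% and 29.6%, while Klf2, a quiescence factor, was at 79.5% and 83.1%.

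**Figure D4:**
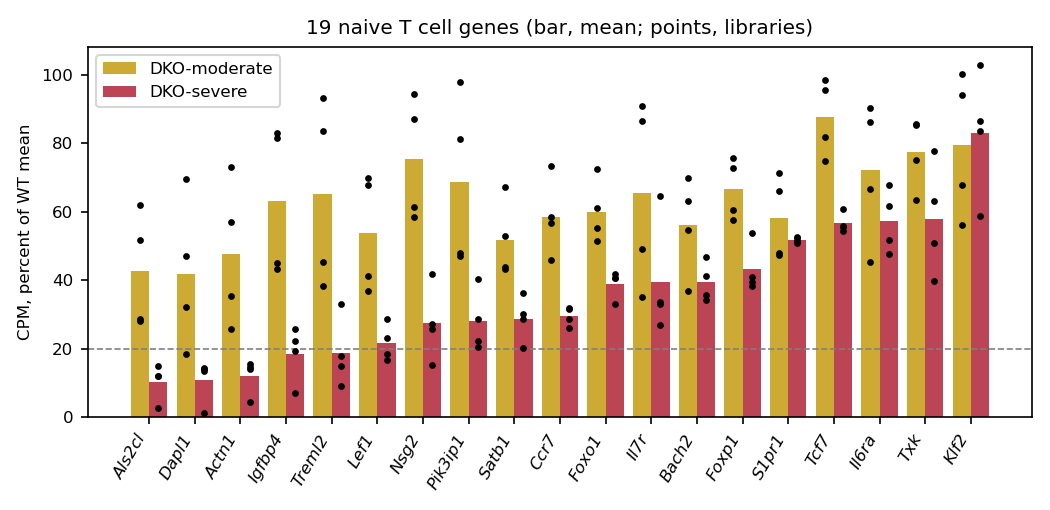
Naive T cell genes, 19 of the 20 on the list, as percent of the WT mean, ordered by DKO-severe level, with bars for the group mean and a point for each of 4 libraries. The dashed line marks 20%. The 5 genes left of Lef1 are among the 78, and Klf2 at the right is at 83.1% of WT in DKO-severe.

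Igfbp4, a secreted binding protein of insulin-like growth factors, had the highest WT level per kb of exon, 194 CPM per kb. It measured 1011, 758, 741 and 911 CPM in WT 1 to 4, then 697, 369.9, 709 and 385 CPM in DKO-moderate 1 to 4 and 60.7, 219, 164 and 189 CPM in DKO-severe 1 to 4. Every DKO-moderate library lay below every WT library, by a narrow margin for DKO-moderate 3, and DKO-moderate 2 and 4 were near each other and lower. The difference from WT did not pass the test (log2 fold change -0.72 ± 0.35 (SE), edgeR adjusted p = 0.173).

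Actn1, the actin cross-linker alpha-actinin, measured 539, 548, 555 and 554 CPM in WT 1 to 4, then 313, 142, 401 and 194 CPM in DKO-moderate 1 to 4 and 23.7, 85.6, 77.4 and 80.5 CPM in DKO-severe 1 to 4. WT was nearly constant, DKO-moderate spread widely between libraries, and no groups overlapped. The difference of DKO-moderate from WT missed the threshold (log2 fold change -1.12 ± 0.38 (SE), edgeR adjusted p = 0.0636). Als2cl, related to the guanine nucleotide exchange factor alsin, measured 606, 643, 459.8 and 484 CPM in WT 1 to 4, then 284, 158, 340.2 and 155 CPM in DKO-moderate 1 to 4 and 15.1, 81.2, 65.5 and 65.7 CPM in DKO-severe 1 to 4, again with no overlap and with DKO-moderate 2 and 4 low (log2 fold change in DKO-moderate -1.29, edgeR adjusted p = 0.0557). Dapl1, a small protein of resting T cells, measured 80.2, 67.4, 73.0 and 65.4 CPM in WT 1 to 4, then 49.7, 13.1, 33.7 and 23.1 CPM in DKO-moderate 1 to 4 and 0.923, 9.99, 10.3 and 9.58 CPM in DKO-severe 1 to 4. DKO-severe 1 was far below the other severe libraries, and no groups overlapped. The difference of DKO-moderate from WT did not pass (log2 fold change -1.31, edgeR adjusted p = 0.113). Treml2, a surface receptor of the TREM family, ranged over 139 to 195 CPM in WT, then 62.5 to 152 CPM in DKO-moderate and 14.7 to 53.8 CPM in DKO-severe, so DKO-moderate overlapped WT (log2 fold change -0.67, edgeR adjusted p = 0.23).

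A set of 6 genes belongs to receptors and enzymes of cyclic AMP and other G protein-coupled signalling, among them Vipr1, Tbxa2r, Gprc5b, Adcy6 and Rapgef4. Their median level relative to WT was 47.7% in the moderate group and 13.2% in the severe group, and 2 of the 6 were lower in DKO-moderate than in WT by the test. All 6 were called lower in DKO-severe than DKO-moderate, which is a description, since the severe libraries chose the genes. In DKO-moderate against WT, 41 of all 78 genes and 4.74% of all tested genes were called lower. The count over the 78 was 12 to 63 without single libraries, so classes are not compared by such counts here or below. Vipr1, the receptor for vasoactive intestinal peptide, measured 226, 229, 233 and 213 CPM in WT 1 to 4, then 124, 59.5, 136 and 63.7 CPM in DKO-moderate 1 to 4 and 6.94, 37.7, 33.2 and 28.1 CPM in DKO-severe 1 to 4. Its groups did not overlap, and DKO-moderate missed the threshold against WT (log2 fold change -1.29 ± 0.42 (SE), edgeR adjusted p = 0.0535). Gprc5b, an orphan receptor, measured 15.99, 17.5, 20.7 and 18.5 CPM in WT 1 to 4, then 8.79, 8.79, 11.6 and 7.63 CPM in DKO-moderate 1 to 4 and 1.06, 3.29, 1.99 and 2.37 CPM in DKO-severe 1 to 4. Here no groups overlapped and DKO-moderate was lower than WT by the test (log2 fold change -1.05 ± 0.26 (SE), edgeR adjusted p = 0.0175). Adcy6, an adenylyl cyclase, was at 55.1% of WT in DKO-moderate, and Rapgef4, an exchange factor for Rap that cyclic AMP activates, at 44.6%. A list of 26 cyclic AMP pathway genes, drawn up after the 78 were known, held 4 of them and did not move one way. In DKO-moderate against WT 2 were lower and 4 higher, beside 4.74% and 12.3% of all tested genes. From DKO-moderate to DKO-severe 8 were lower and 5 higher, beside 10.7% and 9.41%. The 8 include the 4 chosen genes, so that count is in part a description. On this list, the prostaglandin E receptor Ptger2 was at 445% of WT in the moderate group and 822% in the severe group. The adenosine receptor Adora2a was at 144% and 213%.

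Another 6 genes act in TGF-beta family, Wnt or Notch signalling. Of the 6, 5 were lower in DKO-moderate than in WT, beside 4.74% of all tested genes, the exception being Bambi. Acvrl1, a type I receptor of the TGF-beta family, measured 51.3, 41.3, 35.9 and 38.5 CPM in WT 1 to 4, then 21.8, 13.4, 27.7 and 16.6 CPM in DKO-moderate 1 to 4 and 5.02, 7.44, 4.36 and 4.63 CPM in DKO-severe 1 to 4. All groups were separate, with a difference from WT past the threshold (log2 fold change -1.13 ± 0.24 (SE), edgeR adjusted p = 0.00832). Rgmb, a co-receptor for bone morphogenetic proteins, measured 34.9, 29.0, 24.99 and 24.6 CPM in WT 1 to 4, then 16.3, 10.5, 18.4 and 9.47 CPM in DKO-moderate 1 to 4 and 3.69, 6.67, 4.16 and 4.20 CPM in DKO-severe 1 to 4 and likewise did not overlap (log2 fold change -1.11, edgeR adjusted p = 0.0116). Bambi, a decoy receptor that blocks TGF-beta family signals, varied most within WT: it measured 9.68, 13.3, 6.64 and 3.22 CPM in WT 1 to 4, then 4.56, 4.81, 2.42 and 1.16 CPM in DKO-moderate 1 to 4 and 0.137, 0.764, 1.08 and 0.154 CPM in DKO-severe 1 to 4. WT 4 was within the DKO-moderate range, and the difference from WT did not pass (log2 fold change -1.42, edgeR adjusted p = 0.15). Frat2, which binds glycogen synthase kinase and promotes Wnt signalling, measured 91.0, 93.0, 78.3 and 60.6 CPM in WT 1 to 4, then 44.5, 39.7, 36.6 and 24.3 CPM in DKO-moderate 1 to 4 and 9.43, 17.7, 15.8 and 13.2 CPM in DKO-severe 1 to 4, with separate groups (log2 fold change -1.23 ± 0.22 (SE), edgeR adjusted p = 0.00362). Jag2, a Notch ligand, was at 40.2% and 19.7%, and Nedd4l, a ubiquitin ligase that acts on receptor and channel proteins, at 43.4% and 15.4%. A list of 27 TGF-beta and bone morphogenetic protein genes, drawn up after the 78 were known, held 5 of them. Of its 26 tested genes, 10 were lower and 2 higher in DKO-moderate than in WT, beside 4.74% and 12.3% of all tested genes. From DKO-moderate to DKO-severe 13 were lower and 1 higher, beside 10.7% and 9.41%. The 13 include the 5 chosen genes, so that count is in part a description. Smad7, an inhibitor of the pathway, was at 47.6% and 20.6% of WT, and Tgfbr2, the type II receptor, at 66.4% and 38.9%, whereas Bmpr2 was at 279% and 500.0%.

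A set of 7 genes regulates transcription or chromatin, with a median of 47.8% of WT in DKO-moderate. Of the 7, 3 were lower in DKO-moderate than in WT, Tet1 and Gata1 among them, beside 4.74% of all tested genes. Tet1, the TET family member not targeted in these mice, measured 37.5, 42.4, 40.2 and 36.6 CPM in WT 1 to 4, then 21.8, 13.1, 22.7 and 10.2 CPM in DKO-moderate 1 to 4 and 2.15, 7.54, 5.40 and 6.38 CPM in DKO-severe 1 to 4. No groups overlapped (log2 fold change -1.27 ± 0.34 (SE), edgeR adjusted p = 0.023). From DKO-moderate to DKO-severe the difference was a log2 fold change -1.79 ± 0.35 (SE), given as a description. Jun, a subunit of the AP-1 transcription factor, measured 358, 464, 346 and 376 CPM in WT 1 to 4, then 221, 187, 231 and 87.8 CPM in DKO-moderate 1 to 4 and 18.05, 51.0, 85.5 and 47.3 CPM in DKO-severe 1 to 4. DKO-moderate 4 was lowest of its group, close to DKO-severe 3, and the difference from WT missed the threshold (log2 fold change -1.15, edgeR adjusted p = 0.0642). A list of 15 immediate early genes, again drawn up after the 78 were known, held Jun and Ppp1r15a. In DKO-moderate against WT 3 were lower and 1 higher, beside 4.74% and 12.3% of all tested genes. From DKO-moderate to DKO-severe 7 were lower and 0 higher, beside 10.7% and 9.41%. The 7 include Jun and Ppp1r15a, so that count is in part a description. Fos was at 78.8% and 37.1% of WT and Junb at 57.6% and 29.99%, whereas Egr2 was at 319% and 513%.

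Sox4, a transcription factor of immature lymphocytes, measured 20.5, 24.1, 28.0 and 22.1 CPM in WT 1 to 4, then 9.72, 20.1, 10.4 and 17.2 CPM in DKO-moderate 1 to 4 and 1.85, 9.16, 3.20 and 2.78 CPM in DKO-severe 1 to 4. DKO-moderate 2 and 4 were the higher pair here, the reverse of most of the 78 genes, and the difference from WT did not pass (log2 fold change -0.82, edgeR adjusted p = 0.172). Gata1, the erythroid transcription factor, ranged over 4.88 to 7.62 CPM in WT, then 3.02 to 4.33 CPM in DKO-moderate and 0.649 to 1.49 CPM in DKO-severe and was lower in DKO-moderate than in WT (log2 fold change -0.83, edgeR adjusted p = 0.0475). Its call was lost in 8 of the 12 fits that left out 1 library. The 7 measured erythroid and platelet genes summed to 2.09 to 15.9 CPM in WT, 2.06 to 8.25 CPM in DKO-moderate and 10.6 to 35.2 CPM in DKO-severe, so this sum was not lowest where Gata1 was.

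The 12 other surface proteins had a median of 45% of WT in DKO-moderate. Of the 12, 9 were lower there than in WT, beside 4.74% of all tested genes. Cd55, which protects cells from complement, measured 97.3, 105, 96.8 and 76.3 CPM in WT 1 to 4, then 44.1, 18.9, 45.5 and 18.8 CPM in DKO-moderate 1 to 4 and 5.02, 24.4, 11.9 and 9.11 CPM in DKO-severe 1 to 4. It was 33.9% of WT in DKO-moderate, and DKO-severe 2 overlapped DKO-moderate 2 and 4 (log2 fold change -1.61 ± 0.43 (SE), edgeR adjusted p = 0.0243). Ly6c1, a glycolipid-anchored protein of naive and memory T cells, ranged over 83.4 to 109 CPM in WT, then 30.6 to 58.0 CPM in DKO-moderate and 3.49 to 17.6 CPM in DKO-severe and did not overlap (log2 fold change -1.16, edgeR adjusted p = 0.0462). Its call was lost in 9 of the 12 fits that left out 1 library. Close to the 20% limit used for the choice, Jag2 at 19.7% and Dnajc6 at 19.6% of WT in DKO-severe lay inside, and just outside were Cd8b1 at 20.1%, Insl6 at 20.1% and Rcn3 at 20.2%.

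Of 8 metabolic and glycosylating enzymes, 7 were lower in DKO-moderate than in WT, all but Ldhd, beside 4.74% of all tested genes. Adh1, an alcohol dehydrogenase that also oxidises retinol, measured 24.1, 18.3, 16.4 and 21.2 CPM in WT 1 to 4, then 4.08, 3.28, 9.85 and 3.03 CPM in DKO-moderate 1 to 4 and 0.103, 0.664, 1.74 and 0.927 CPM in DKO-severe 1 to 4. It was the lowest of the 78 genes in DKO-severe at 4.29% of WT, and DKO-moderate 3 was higher than the other moderate libraries (log2 fold change -2.03 ± 0.55 (SE), edgeR adjusted p = 0.0257). Galnt10, which starts mucin-type O-glycans, measured 222, 270.4, 236 and 240.3 CPM in WT 1 to 4, then 127, 83.7, 169 and 99.4 CPM in DKO-moderate 1 to 4 and 18.7, 54.8, 48.6 and 44.6 CPM in DKO-severe 1 to 4 with no overlap (log2 fold change -1.08 ± 0.29 (SE), edgeR adjusted p = 0.0261). St8sia6, a sialyltransferase, was at 35.0% of WT in the moderate and 10.5% in the severe group.

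Among 12 regulators of the cytoskeleton and small GTPases, 6 were lower in DKO-moderate than in WT, beside 4.74% of all tested genes. Mid1, a microtubule-associated ubiquitin ligase, measured 8.51, 9.61, 5.27 and 10.5 CPM in WT 1 to 4, then 2.87, 0.630, 2.80 and 0.758 CPM in DKO-moderate 1 to 4 and 1.03, 0.465, 0.681 and 0.515 CPM in DKO-severe 1 to 4. It was the lowest of the 78 in DKO-moderate (log2 fold change -2.30 ± 0.52 (SE), edgeR adjusted p = 0.0104), while its DKO-severe range overlapped DKO-moderate and the step from there to DKO-severe was not called (log2 fold change -1.54 ± 0.52 (SE)). Arhgap29, a GTPase-activating protein, ranged over 23.5 to 32.999 CPM in WT, then 5.94 to 17.5 CPM in DKO-moderate and 0.581 to 2.45 CPM in DKO-severe, with no overlap (log2 fold change in DKO-moderate -1.46, edgeR adjusted p = 0.0277). Myo10, a myosin of filopodia, ranged over 32.7 to 40.8 CPM in WT, then 6.01 to 22.0 CPM in DKO-moderate and 4.58 to 8.50 CPM in DKO-severe, and only its DKO-moderate and DKO-severe ranges overlapped (log2 fold change in DKO-moderate -1.49, edgeR adjusted p = 0.0103).

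The 5 transporters and channels had a median of 42.8% of WT in DKO-moderate. Of the 5, 2 were lower there than in WT, beside 4.74% of all tested genes. Atp1b1, the beta subunit of the sodium pump, measured 129, 123, 128 and 108 CPM in WT 1 to 4, then 54.9, 36.8, 71.7 and 35.6 CPM in DKO-moderate 1 to 4 and 6.19, 28.8, 15.2 and 16.7 CPM in DKO-severe 1 to 4 with no overlap (log2 fold change -1.35 ± 0.36 (SE), edgeR adjusted p = 0.0229). Gabrr2, a GABA receptor subunit, was at 34.6% and 8.94% of WT. Tmie, known from hair cells of the ear, was at 42.8% and 9.87%. It lies beside Als2cl on the opposite strand of chromosome 9, where both gene bodies overlap by 244 bases, and Als2cl was at 42.7% and 10.4%.

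The 4 stress and cell death genes included Ppp1r15a, the phosphatase subunit that restores translation after stress. It measured 372, 529.7, 385 and 268 CPM in WT 1 to 4, then 271, 245, 186 and 104 CPM in DKO-moderate 1 to 4 and 20.7, 54.7, 91.1 and 55.4 CPM in DKO-severe 1 to 4, and DKO-moderate overlapped WT (log2 fold change -1.02, edgeR adjusted p = 0.0964). Dapk1, a death-associated kinase, ranged over 17.5 to 20.6 CPM in WT, then 3.17 to 9.99 CPM in DKO-moderate and 1.41 to 3.04 CPM in DKO-severe and was lower in DKO-moderate than in WT (log2 fold change -1.58, edgeR adjusted p = 0.0103). Of 5 secreted proteins, Wfikkn2, Afp and Ovgp1 were lower in DKO-moderate and Igfbp4 and Scg5 did not pass.

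Xlr3b, a member of a clustered X-linked family with near-identical copies, was the exception in DKO-moderate. It measured 6.48, 7.94, 8.77 and 6.75 CPM in WT 1 to 4, then 9.77, 8.46, 3.37 and 10.01 CPM in DKO-moderate 1 to 4 and 1.85, 1.06, 0.529 and 0.566 CPM in DKO-severe 1 to 4. DKO-moderate overlapped WT on both sides, and its direction depended on scaling: the level was 106% of WT in CPM and the fitted log2 fold change was -0.01, edgeR adjusted p = 0.999. Reads that fit several family members were left out of the counts, so this value is uncertain. From DKO-moderate to DKO-severe it had the largest fitted difference of the 78 (log2 fold change -3.09 ± 0.44 (SE)), given as a description.

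**Figure D5:**
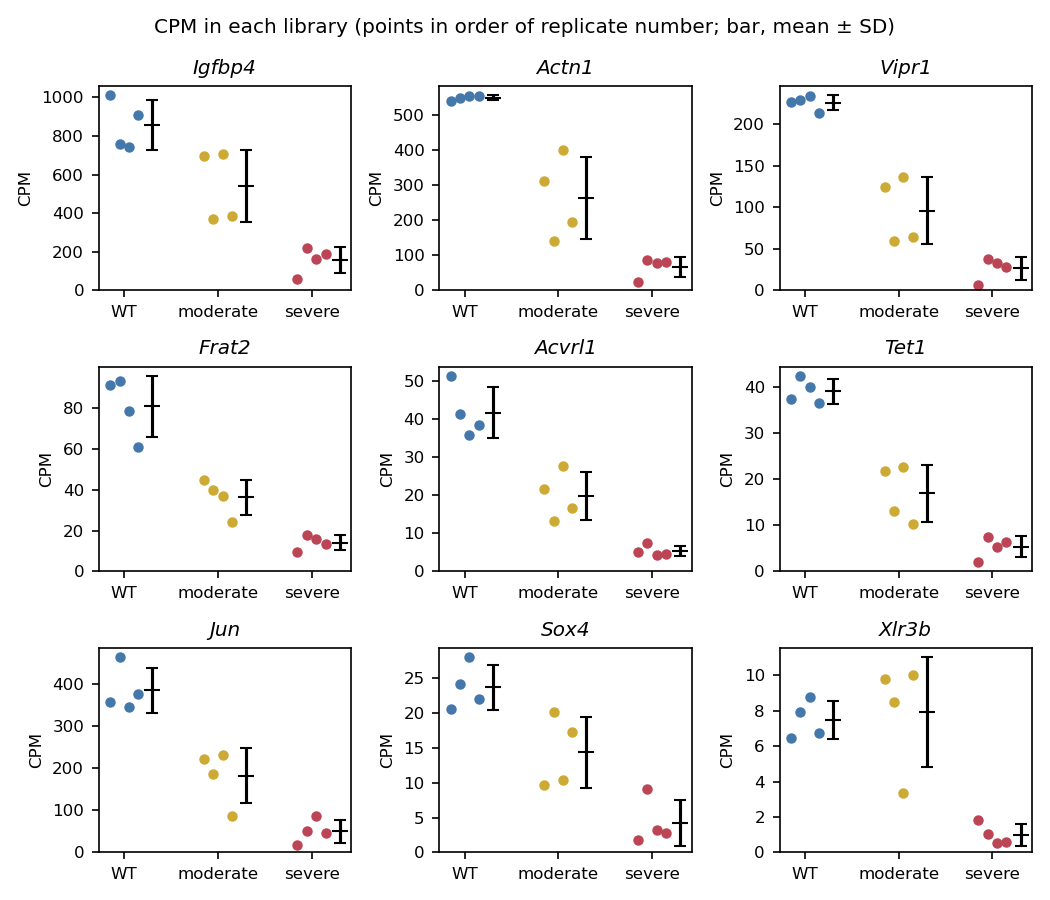
CPM in each library for 9 of the genes (points, 4 libraries per group in order of replicate number) with the group mean ± SD as a black bar. Igfbp4, Actn1, Vipr1, Frat2, Acvrl1, Tet1 and Jun step down from WT to DKO-severe, Sox4 has DKO-moderate 2 and 4 as its higher pair, and Xlr3b overlaps WT in DKO-moderate.

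The other 13 genes, Dapl1 and Xlr3b included, are uncharacterised or of mixed function. Of the 13, 3 were lower in DKO-moderate than in WT, beside 4.74% of all tested genes: 2610019F03Rik (Tdrp), A530021J07Rik and Gm16534. Some counts can draw on an overlapping gene of the same strand. Snord14a lies within Rps13, which was at 87.1% and 58.1% of WT, Gm15708 overlaps Bri3, which was at 94.8% and 92.0%, and Gm16534 overlaps Fam78a, which was at 58.7% and 24.2%. Of the 77 genes matched to the annotation (GENCODE, GRCm38), 70 were protein-coding (90.9% against 97.9% of the genes that met the WT minimum), and they lay on 18 chromosomes. Their median exon length was 4.63 kb, as over the genes that met the WT minimum, and 4 pairs lay within 1 Mb of each other: Als2cl with Tmie, Ampd1 with Dennd2c, Arhgap29 with Cnn3, and Dapl1 with Tanc1.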

How the data were processed

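The authors made directional libraries, sequenced paired ends, aligned the reads to mm10 with STAR 2.7.11 keeping reads with a single position, and deposited raw counts per gene from htseq-count in its reverse-stranded mode. The annotation used for counting is not given in the sources used here. The labels number the libraries within a group and name no mice, so p-values measure the spread between these libraries.

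Here, CPM are counts per 1000000 reads on genes, with the 5 summary rows of each table left out (18.5% to 23.7% of records). Genes whose reads in some group summed to 10 or more (16035) were fitted over all 12 libraries with edgeR 4.0.16 (TMM, quasi-likelihood F test, R 4.3.3). The p-values were adjusted across every tested gene (Benjamini-Hochberg), and adjusted p under 0.05 counted as a call. Each SE was taken as the absolute log2 fold change over the root of its F statistic. Tables and plots used Python 3.11.15, pandas 2.3.3, numpy 2.4.6 and matplotlib 3.10.9. On simulated counts for DKO-moderate against WT (14576 genes, 200 changed), 79% of 2-fold and 95% of 4-fold changes were recovered, with 5.95% false among calls. No 2 libraries of a group agreed within sampling noise (chi-square per degree of freedom at least 22.9).

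The 78 genes, the 17 gene lists, the 4 lists added later, the classes and the named genes were chosen with earlier results of these data known. Named genes are those with the 15 highest WT levels, the 10 lowest DKO-severe levels, the 10 lowest and 10 highest DKO-moderate levels relative to WT, genes of the lists, and those at the 20% limit. Other genes were named for their class after their values were seen. Alternatives were DESeq2 1.42.0, edgeR with the size factors of DESeq2 or with library sizes only, an unfiltered fit, filterByExpr, only both groups compared, a replicate block, other limits of the choice, and leaving out each library. Results that rest on some of the genes are not reported here.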

Additional observations from a re-analysis of the deposited data

Results flagged for a closer look

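In 4 of 114 sets of 4 libraries checked, 1 library stood apart from the other 3 by Dixon's test, where chance gives about 1 in 20. Actn1 was 23.7 CPM in DKO-severe 1 and 77.4 to 85.6 CPM in the other severe libraries. Dapl1 was 0.923 CPM in DKO-severe 1 and 9.58 to 10.3 CPM in the others. Adh1 was 9.85 CPM in DKO-moderate 3 and 3.03 to 4.08 CPM in the others. Myo10 was 40.8 CPM in WT 3 and 32.7 to 33.9 CPM in the others. DKO-severe 1 also had the highest neutrophil sum, 2407 CPM. Its part in these values was not tested.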

How the results depend on the processing

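The count of genes lower in DKO-moderate than in WT, 41, was 58 with DESeq2, 41 with its size factors in edgeR, 39 with library size alone, 40 with no filter, 45 with filterByExpr and 62 when only both groups were fitted. The share called lower over all tested genes was 8.76%, 4.96%, 3.34%, 3.30%, 6.91% and 5.05%, in the same order, and 4.74% in the main fit. Leaving out single libraries gave 12 to 63, with shares of 1.88% to 5.85%. Library size alone moved the median of all genes to 0.07 in DKO-moderate and 0.18 in DKO-severe on the log2 scale, with medians of the 78 genes at -1.09 and -2.84. The count lower in DKO-severe than DKO-moderate, 75, was 63 to 77 under the alternatives chosen with the design and 1 with the neutrophil and B cell terms added later. Over all tested genes, 5.26% to 12.5% were called lower under those alternatives and 0.106% with the added terms. Neutrophil sums also set every DKO-severe library apart from the others, so these terms can hardly be told from severity. The cause was not tested.

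The number of genes chosen was 43 at a limit of 15%, 129 at 25%, 110 with TMM-scaled CPM, and 60 to 111 without single libraries. The median level in DKO-moderate was 40.6% to 50.9% under every alternative run. Xlr3b was the only named gene whose direction reversed: its log2 fold change in DKO-moderate was 0.00080 with DESeq2, 0.00082 with its size factors, 0.078 with library size alone, 0.072 without the 3 libraries with most B cell or neutrophil reads, and between -0.16 and 0.24 with single libraries left out.

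With the replicate number as a block, 26 genes were lower in DKO-moderate than in WT and 67 lower in DKO-severe than DKO-moderate. The shares over all tested genes were 3.27% and 7.65%. No sign of pairing by number was seen: residual correlations had a median of -0.032 for the same number and 0.012 for different numbers. Their ranges overlapped (-0.24 to 0.19 and -0.28 to 0.27). Such correlations cannot settle whether the numbers mark a pairing, and the labels do not say.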

Other observations

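The 2 lists here hold none of the 78 genes. Of 18 transcription regulators of T cell quiescence and stemness, 7 were lower and 0 higher in DKO-moderate than in WT, and 8 lower and 0 higher in DKO-severe than DKO-moderate (edgeR), with a summed level of 8740 to 9346 CPM in WT, 5473 to 7605 CPM in DKO-moderate and 4344 to 5097 CPM in DKO-severe. Of 16 cytokine receptors, 4 were lower and 2 higher in DKO-moderate than in WT, and 6 lower and 1 higher in DKO-severe than DKO-moderate. Over all tested genes, 4.74% were lower and 12.3% higher in DKO-moderate than in WT. In DKO-severe against DKO-moderate, 10.7% of all tested genes were lower and 9.41% higher.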
